A study of Mus musculus with 4 samples.

Results

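The library described here came from HT22 cells that had received a control virus, an adenovirus by the library labels, and were kept in normal culture, without oxygen or glucose deprivation. Its members are the genes at 1 FPKM or more, where FPKM is the number of sequenced fragments assigned to a gene per kilobase of effective length, scaled to the library's total. These were 11819 of the 47069 genes in the table, or 25.1%. HT22 is an immortalised mouse cell line, with the strain given as C57BL/6, and the virus was added 2 h after seeding. The series holds 4 libraries, 1 for each pairing of a control or an AK046375-directed virus with normal culture or with oxygen and glucose deprivation, and only the first of them enters here. An adenovirus and a knockdown are named in the library labels, but a lentivirus and overexpression in the title and design of the series. That conflict concerns the other virus, but the kind of control virus is not settled either. The culture had been given virus, so the library does not show the untreated line, and the virus's own transcripts were not analysed here. Total RNA was fragmented to about 200 bp before a dUTP-marked cDNA was made.

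HT22 cells are a subclone of the HT4 line, which was made by immortalising mouse hippocampal neuronal tissue with the large T antigen of a simian virus. The line is widely used as a hippocampal neuronal model of oxidative death: high glutamate outside the cell blocks cystine uptake through the xCT antiporter, glutathione runs down and the cells die without a need for glutamate-gated channels. Mature hippocampal neurons in tissue are known for neuronal RNA-binding proteins, neurofilaments, the synaptic vesicle machinery and glutamate and GABA receptors. Members of many gene families divide between neurons and dividing cells, so the paralogue a cell transcribes is a description of its state.

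The library held 26002246 expected counts, and 28362 genes had none. With 1 library there is no spread between cultures and no test. Values in brackets are exact Poisson 95% intervals of the count, carried to the FPKM scale. They cover counting error only, since PCR reads without molecular identifiers are not independent molecules. At this depth 1 FPKM is 26.002 counts for an effective length of 1 kb. For a gene with 0 counts, 3 counts is the limit that the depth allows, which is 0.115 FPKM at 1 kb. A gene at 0 counts is therefore described as not detected at this depth.

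Levels spanned a wide range. Of all genes, 6669 reached 10 FPKM, 1637 reached 100 FPKM and 170 reached 1000 FPKM. The median of the genes at 1 FPKM or more was 13.2 FPKM and 643 counts, while the median over all genes of the table was 0. The first 100 genes held 34.0% of the summed FPKM and the first 1000 held 73.1%. Protein-coding genes supplied 93.7% of counts, and 10261 of 21560 reached 1 FPKM, or 47.6%. Long intergenic noncoding RNA genes reached it in 150 of 3401 cases and antisense genes in 175 of 2318. At the threshold itself, 17 genes stood at exactly 1.00 FPKM with 10 to 167 counts and 24 stood at 0.99 FPKM with 6 to 135 counts. In all, 181 members rested on fewer than 10 counts.

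**Figure D1:**
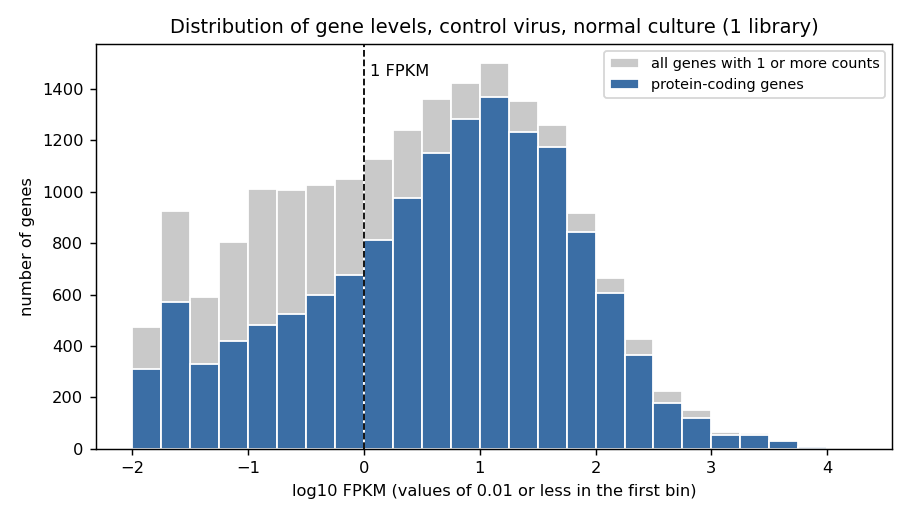
Number of genes (vertical axis) by log10 FPKM (horizontal axis) for genes with at least 1 count in the single library, with protein-coding genes in blue and all genes in grey. The bars right of the dashed line hold the 11819 genes at 1 FPKM or more, whose median is 13.2 FPKM.

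The 20 most abundant named genes were those of protein synthesis, glycolysis, iron storage, the actin cytoskeleton and calcium- or sugar-binding proteins. They held 12.3% of the summed FPKM. Ribosomal protein genes made up 11 of these 20 and 55 of the first 100, and the 77 genes of the family took 19.9% of summed FPKM and 10.6% of counts. Rplp1, a protein of the ribosomal stalk, was the highest at 12018 FPKM (11940.3 to 12095). Its stalk partner Rplp0 stood at 7877 FPKM, and the small-subunit protein Rps2 at 5424 FPKM. Eef1a1, the elongation factor that brings aminoacyl-tRNA to the ribosome, had 10895 FPKM and the most counts of any named gene, 218166. Eef2, the translocation factor, had 168578 counts over a longer transcript and stood at 2236 FPKM.

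Outside translation, the highest gene was Lgals1, which encodes the beta-galactoside-binding protein galectin-1, at 10059 FPKM (10009.5 to 10109). The ferritin light chain gene Ftl1 stood at 9030.4 FPKM and the ferritin heavy chain gene Fth1 at 4100.5 FPKM, so both subunits of the iron-storage shell were among the 20. S100a6, a calcium-binding S100 protein, had 7106 FPKM. The glycolytic enzyme gene Gapdh had 6809 FPKM, and Pkm, the last enzyme of glycolysis, and Ldha, which makes lactate, were among the 10 genes with the most counts, at 144355 and 117200. Cytoplasmic actins Actg1 and Actb stood at 6492 and 4442 FPKM. No gene known as specific to neurons was among the 20.

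**Figure D2:**
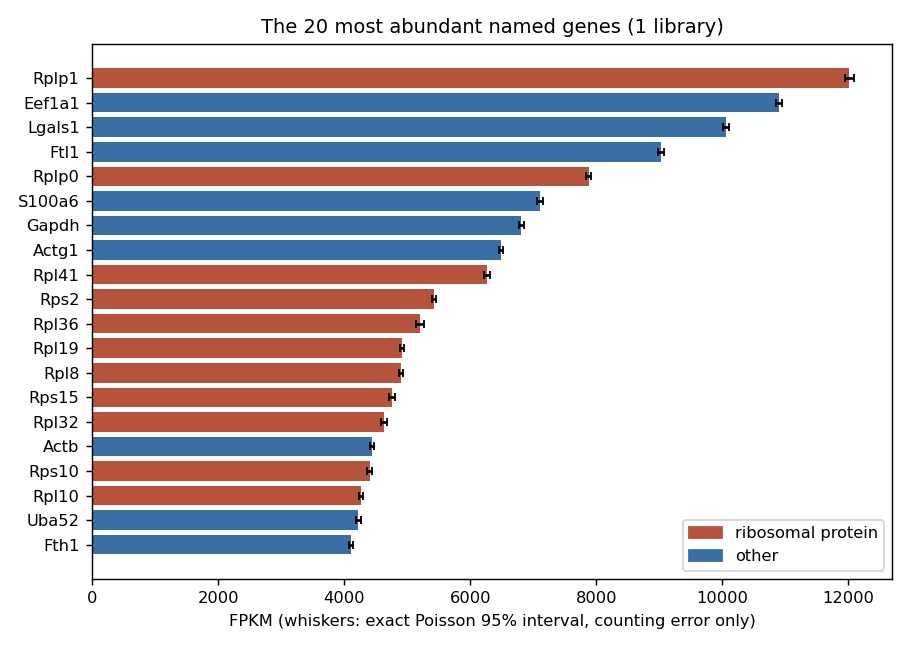
FPKM of the 20 most abundant named genes in the single library (bars from 0), with whiskers for the exact Poisson 95% interval and ribosomal protein genes in red. Values run from 12018 for Rplp1 to 4100.5 for Fth1, and 11 of the 20 bars are ribosomal.

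In some abundant rows a count has more than 1 reading, and several of these rows were left out above by their name or class. The pseudogene Rps2-ps10 carried 57716 counts against 99979 for Rps2, of which it is a near copy, and the 8 Rps2-ps genes together carried 73090 counts. All pseudogene classes together took 4.08% of counts and 883 of the genes at 1 FPKM or more. The enolase gene Eno1b, a near copy of Eno1, stood at 489 FPKM, and the sources used here do not say how the counting divides such reads. An interval of chromosome 17 between 39846353 and 39848827 holds the overlapping genes CT010467.1, Gm42418 and AY036118, of which the first is annotated as ribosomal RNA, and took 1.29% of counts. The 13 mitochondrial protein-coding genes took 0.386% of counts. FPKM also rises without limit as effective length nears 0. Of the members, 113 had an effective length under 50, and a gene without a symbol reached 7650 FPKM from 879 counts at an effective length of 4.42.

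Levels moved with the transcript's base composition and length. Among protein-coding genes at 1 FPKM or more, the median was 5.01 FPKM where the longest transcript had under 40% GC, 11.4 FPKM at 45% to 50%, 26.3 FPKM at 55% to 60% and 22.04 FPKM from 60% upward. By length, it was 75.7 FPKM for transcripts under 1000 bases and 4.95 FPKM for those of 6000 bases or more. The share of coding genes at 1 FPKM or more was 20.7% in the first of these GC classes, 59.9% at 55% to 60% and 53.9% from 60% upward. By length that share ran the other way from the median, at 20.2% under 1000 bases, 61.1% at 4000 to 6000 and 52.5% above. The part of base composition or length in the levels of single genes below was not tested.

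Of 26 pan-neuronal genes, 7 were at 1 FPKM or more, or 26.9%, and 12 had 0 counts. All 26 are protein coding, and that share stood beside 47.6% of protein-coding genes and 25.1% of all genes. The median of the list was 0.015 FPKM. Several genes used to mark differentiated neurons were not detected. Rbfox3, the splicing factor known as the NeuN antigen, had 0 counts. So did the neurofilament genes Nefl, Nefm and Nefh and the related filament gene Ina. The neuronal Hu proteins Elavl2, Elavl3 and Elavl4, the migration protein gene Dcx, the growth cone gene Gap43 and the vesicle fusion gene Snap25 also had 0 counts. Syn1, Syt1, Stmn2, Stmn3 and L1cam had 1 to 8 counts.

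The pan-neuronal genes present lay between 58.3 and 1.08 FPKM. Dlg4, the postsynaptic scaffold PSD-95, stood at 58.3 FPKM (56.1 to 60.7). Eno2, the neuron-specific enolase, stood at 47.5 FPKM (45.3 to 49.9), and Tubb3, the beta-III tubulin, at 40.6 FPKM (38.7 to 42.5). Uchl1, a ubiquitin hydrolase abundant in neurons, had 25.6 FPKM. The cell adhesion gene Ncam1 had 5.71 FPKM and the RNA-binding gene Celf4 had 5.09 FPKM. Map2, the dendritic microtubule protein, was at 1.08 FPKM (0.820 to 1.40), with an interval that spans the threshold, and the axonal tau gene Mapt was below it at 0.49 FPKM. The label of HT22 as a hippocampal neuronal line thus stands beside 4 pan-neuronal genes above 10 FPKM and 12 not detected.

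Of 22 forebrain transcription factors, 8 were at 1 FPKM or more, or 36.4% beside 47.6% of protein-coding genes, and 11 had 0 counts. Patterning factors of the forebrain anlage were in part present, with Pax6 at 11.9 FPKM (10.9 to 12.97), Lhx2 at 9.88 FPKM, Six3 at 4.89 FPKM, Emx2 at 2.67 FPKM and Otx1 at 2.43 FPKM. Others of that kind, Emx1, Otx2, Lhx5 and Lhx9, had 0 counts. Zbtb18 and Zbtb20, zinc-finger repressors of cortical and hippocampal development, had 2.98 and 2.36 FPKM. Of the factors that mark committed or mature neurons, Neurod1, Neurod2, Neurod6, Bcl11a, Bcl11b and Fezf2 had 0 counts, and Mef2c stood at 0.22 FPKM. Prox1, the factor of dentate granule cells, also had 0 counts, and Tbr1 had 1 count.

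No list for the synthesis and transport of a transmitter was present as a whole. Slc17a7, the vesicular glutamate transporter VGLUT1, was the only gene of 9 in the glutamatergic list at 1 FPKM or more, at 1.23 FPKM from 88 counts (0.986 to 1.52). Slc17a6 and Slc17a8 had 0 counts. In the GABAergic list the transcription factors Lhx6, Dlx1 and Dlx2 stood at 2.13, 1.99 and 1.99 FPKM, while the synthetic enzyme genes Gad1 and Gad2 and the vesicular transporter gene Slc32a1 had 0 counts. None of 13 cholinergic and monoaminergic genes reached 1 FPKM, and Chat and Th, the enzymes of acetylcholine and catecholamine synthesis, had 0 counts.

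Of 18 progenitor genes, 7 were at 1 FPKM or more, or 38.9% beside 47.6% of protein-coding genes, and 6 had 0 counts. Nes, the intermediate filament nestin of neural progenitors, stood at 46.8 FPKM (45.6 to 47.9). Hes1, a Notch target, had 5.65 FPKM, the RNA-binding gene Msi1 had 4.13 FPKM, Notch1 had 4.80 FPKM and Sox4 had 4.85 FPKM. The factors that maintain neural stem cells, Sox1, Sox2 and Sox3, and the proneural factor Neurog2 had 0 counts.

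Each glial list held a part of its markers, and members used to define the same cell type lay on both sides of the threshold. Glul, the glutamine synthetase used as an astrocyte marker and present in many tissues, had 78.6 FPKM. The gap junction gene Gja1 had 10.2 FPKM and Slc1a3, the astrocyte glutamate transporter GLAST, had 2.59 FPKM. In all, 5 of 10 astrocyte genes were at 1 FPKM or more, a share near the 47.6% of protein-coding genes. The astrocyte filament gene Gfap had 6 counts and the water channel gene Aqp4 had 0. Of 12 oligodendrocyte-lineage genes, Cnp, Pdgfra and Cspg4 were present at 30.9, 12.95 and 7.87 FPKM, the latter pair being markers of oligodendrocyte precursors, and the lineage factors Olig1 and Olig2 had 0 counts. Exons of Cnp overlap those of Dnajc7, which had more counts (2210 against 1597), and without knowing whether counting used the strand, reads there cannot be told apart. In the microglial list the lysosomal gene Cd68 had 49.7 FPKM, Tmem119, a marker of resident microglia, had 43.8 FPKM and Trem2 had 3.66 FPKM, while the leukocyte genes Ptprc and Itgam and the 3 complement C1q genes had 0 counts. In the endothelial list, Flt1 alone of 11 reached the threshold, at 2.17 FPKM. The oligodendrocyte, microglial and endothelial lists, with 3 of 12, 3 of 14 and 1 of 11 present, were below the 47.6% of protein-coding genes.

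Genes of mesenchymal cells and fibroblasts formed the list with the largest share present, 20 of 24 or 83.3% beside 47.6% of protein-coding genes. Their median was 10.6 FPKM. S100a4, the calcium-binding protein also called fibroblast-specific protein, stood at 4053 FPKM, and Vim, the vimentin filament, at 2470.1 FPKM. Sparc, a collagen-binding matrix protein, had 1323 FPKM, and the smooth muscle actin gene Acta2 had 634 FPKM. Collagen I and III chains were present, with Col1a1 at 393 FPKM, Col3a1 at 115 FPKM and Col1a2 at 12.1 FPKM. Fibronectin, encoded by Fn1, had 224 FPKM and the collagen cross-linking enzyme gene Lox had 42.2 FPKM.

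The transcription factors of the same list were lower but detected. Twist2 stood at 36.3 FPKM (34.3 to 38.5), Twist1 at 30.1 FPKM and Prrx1 at 12.9 FPKM. Snai2, Snai1, Zeb1 and Zeb2, repressors of epithelial genes, lay between 5.43 and 1.46 FPKM. The list was not complete: Thy1, Lum and Postn had 0 counts and Fap had 2. Col1a1 and Col1a2 encode the chains of a single trimer, yet their levels per length differed. No epithelial gene of 15 reached 1 FPKM, and the highest was the factor Grhl2 at 0.52 FPKM.

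**Figure D3:**
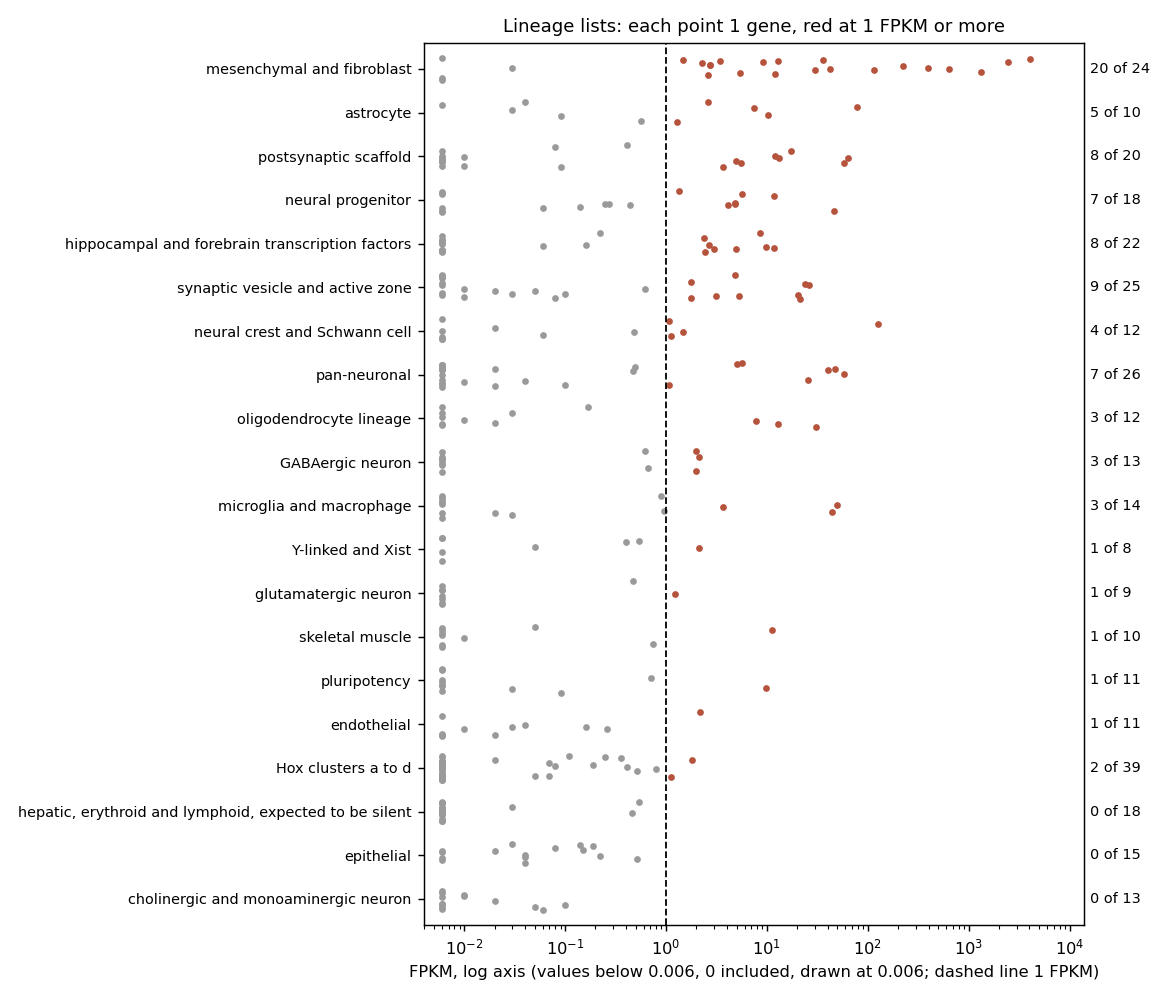
FPKM (log axis) of each gene in the lineage lists, 1 point per gene, with genes at 1 FPKM or more in red and their number at the right. The mesenchymal row has 20 of 24 points right of the dashed line, and the epithelial and the cholinergic and monoaminergic rows have none.

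Lists of other tissues gave the level at which this library is silent. None of 18 hepatic, erythroid and lymphoid genes reached 1 FPKM, and 15 had 0 counts. Among 1605 genes of the olfactory, vomeronasal, bitter taste and hair keratin-associated families, 98.6% had 0 counts. A single row of these, Olfr1372-ps1, was above 1 FPKM, at 3.24, and the next highest was 0.68 FPKM. A level of 1 to 3 FPKM, such as that of Slc17a7, Map2 or the Dlx genes, is thus above nearly all of these silent genes. Of 39 Hox genes, 2 reached the threshold, Hoxa5 at 1.83 FPKM and Hoxb6 at 1.11 FPKM, and 25 had 0 counts, the whole Hoxd list among them. The Schwann cell gene Pmp22 had 127 FPKM, while Sox10, the factor of neural crest and its glia, had 1 count. Klf4 was the only pluripotency gene of 11 present, at 9.80 FPKM, and Pou5f1 had 0 counts.

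Synaptic lists were present in part. In the vesicle and active zone list, 9 of 25 reached 1 FPKM, or 36.0% beside 47.6% of protein-coding genes. The vesicle fusion gene Vamp2 stood at 23.7 FPKM, Rab3a at 21.3 FPKM and Stx1a at 5.31 FPKM. Rab3a exons overlap those of Mpv17l2, which had 1679 counts against 615. The vesicle proteins Syp, Syn1 and Syt1 had 5, 8 and 2 counts. Among postsynaptic scaffolds 8 of 20 were present, led by Homer3 at 63.2 FPKM, whose exons overlap those of Ddx49 with 3073 counts against 2290. The inhibitory synapse adhesion gene Nlgn2 had 17.3 FPKM, and its excitatory counterpart Nlgn1 and the neurexin gene Nrxn3 had 0 counts.

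Receptors for fast and slow transmitters were mostly undetected. Of 26 glutamate receptor genes, 21 had 0 counts and only Grik5 reached the threshold. Grik5, a kainate receptor subunit known to need another kainate subunit to form a channel, stood at 21.2 FPKM from 1509 counts (20.1 to 22.3). Its possible partners Grik1, Grik2 and Grik3, all 4 AMPA subunits and the NMDA subunits Grin2a and Grin2b had 0 counts. Grin1, the obligatory NMDA subunit, had 1 count. The glutamate receptor genes other than Grik5 summed to 11 counts.

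Over all 136 transmitter and neuropeptide receptor genes, 6 reached 1 FPKM, or 4.41% beside 47.6% of protein-coding genes and 25.1% of all genes, and 99 had 0 counts. Apart from Grik5, these included Gabbr1 at 5.34 FPKM, Adra1b at 3.24 FPKM, Adra1d at 3.17 FPKM and Chrnb1 at 2.93 FPKM. Gabbr1 encodes a GABA-B subunit that works as a pair with the product of Gabbr2, which had 4 counts. Chrnb1 is a nicotinic subunit of muscle, and the neuronal subunit genes Chrna4 and Chrna7 had 0 counts. Adra1b and Adra1d encode adrenergic receptors. None of 31 opioid, cannabinoid and neuropeptide receptor genes and none of 14 voltage-gated sodium channel genes reached 1 FPKM. Over the 199 receptor-list genes at 0 counts, the limit of 3 counts corresponded to a median of 0.0440 FPKM and to 0.221 FPKM at most.

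Receptors for extracellular nucleotides, lipids and kinins were present with narrow choice. Among 19 purine receptor genes, 5 reached 1 FPKM, or 26.3% beside 47.6% of protein-coding genes. The ATP-gated channel genes P2rx4 and P2rx7 stood at 50.3 FPKM (47.9 to 52.7) and 12.8 FPKM, and the adenosine receptor gene Adora2b stood at 22.4 FPKM. The other adenosine receptors Adora1 and Adora2a, prominent in brain, had 2 and 1 counts. S1pr2 led the lysophospholipid receptors at 21.8 FPKM, followed by Lpar1 at 8.57 FPKM. The kinin receptor genes Bdkrb1 and Bdkrb2 had 21.5 and 6.07 FPKM, and the thrombin receptor gene F2r had 14.03 FPKM.

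More neurotrophic ligands than receptors for them were present. Of 12 ligand genes, 8 reached 1 FPKM, or 66.7%, and of 11 receptor genes only 2 did, or 18.2%. The share of protein-coding genes was 47.6%. Mdk, the heparin-binding growth factor midkine, had 179 FPKM. Gdnf stood at 20.3 FPKM (19.4 to 21.3) and its binding subunit Gfra1 at 3.79 FPKM, while the signalling receptor gene Ret had 0 counts. Bdnf had 3.25 FPKM from 317 counts, and Ntrk2, the gene of its receptor TrkB, had 1 count. Sort1, a sorting receptor that binds pro-neurotrophins, was the other receptor-list gene present, at 4.76 FPKM.

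Receptor tyrosine kinases were led by Axl, a receptor for Gas6, at 185 FPKM, and by Ryk, a Wnt-binding receptor with an inactive kinase, at 123 FPKM. In all, 20 of 41 reached 1 FPKM, or 48.8%, near the 47.6% of protein-coding genes. Fgfr1 stood at 67.6 FPKM and the collagen receptor gene Ddr1 at 62.3 FPKM. Of the TAM family, Tyro3 had 34.5 FPKM and Mertk 0.30 FPKM. Pdgfra and Pdgfrb had 12.95 and 9.21 FPKM, Egfr 3.68 FPKM, and Kit, Alk and Flt3 had 0 counts. Among the Eph receptors 5 of 14 were present, or 35.7%, with Epha2 at 46.7 FPKM and Ephb4 at 21.8 FPKM. Epha5 and Epha8 had 0 counts.

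Receptors of developmental signals were present in part. In the Notch, Wnt and Hedgehog list 13 of 19 reached 1 FPKM, or 68.4% beside 47.6% of protein-coding genes. Smo, the Hedgehog signal transducer, stood at 37.6 FPKM and its inhibitor Ptch1 at 2.16 FPKM. Fzd2 and Fzd7, Wnt receptors, had 27.0 and 15.3 FPKM. Tgfbr2 had 15.9 FPKM, and Tgfbr1, with which it forms the signalling complex for TGF-beta, had 0.69 FPKM.

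Cytokine and interferon receptors had the largest share present among the receptor lists. Of 22 cytokine and interferon receptor genes, 18 were at 1 FPKM or more, or 81.8% beside 47.6% of protein-coding genes. Both chains of the type I interferon receptor, Ifnar2 at 71.4 FPKM and Ifnar1 at 26.1 FPKM, and both of the interferon-gamma receptor, Ifngr2 at 79.9 FPKM and Ifngr1 at 23.4 FPKM, were among them. Il4ra had 61.8 FPKM and Il6st, the shared signalling chain gp130, had 31.5 FPKM. Tnfrsf12a, the receptor for TWEAK, had 271 FPKM, Tnfrsf1a, the main TNF receptor, had 139 FPKM and the lymphotoxin receptor gene Ltbr had 90.1 FPKM. Of 12 Toll-like receptor genes, Tlr2 and Tlr4 were present at 7.62 and 1.86 FPKM.

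Nuclear receptors were present in 20 of 49 cases, or 40.8% beside 47.6% of protein-coding genes. Thra, a thyroid hormone receptor, had 107 FPKM against 0.22 FPKM for Thrb. Rarg led the retinoic acid receptors at 93.4 FPKM and Nr1h2, the oxysterol receptor LXR-beta, had 93.8 FPKM. The vitamin D receptor gene Vdr had 31.7 FPKM. Nr3c1, the glucocorticoid receptor, which is abundant in hippocampus, stood at 1.21 FPKM (1.02 to 1.42), and Nr3c2, the mineralocorticoid receptor, had 1 count. Esr2 and Pgr, receptors of oestrogen and progesterone, had 0 counts. Exons of Thra overlap those of Nr1d1, which had 1224 counts against 4532.

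Of 26 acid-sensing, HCN and TRP channel genes, with Piezo channels counted among them, 8 reached 1 FPKM, or 30.8% beside 47.6% of protein-coding genes. Mcoln1, the lysosomal mucolipin channel, had 43.9 FPKM and the mechanically gated Piezo1 had 39.5 FPKM. Trpv4 and Trpm4 stood at 17.2 and 12.4 FPKM. Of 18 voltage-gated calcium channel genes 5 reached 1 FPKM, or 27.8%. The auxiliary gene Cacnb3 had 74.5 FPKM, the T-type pore gene Cacna1g had 10.5 FPKM and Cacna1a, the P/Q-type pore gene of neurons, had 5.31 FPKM from 590 counts (4.89 to 5.76), while the L-type pore genes Cacna1c and Cacna1d had 0 counts. Since the labels name an adenovirus, though the kind of control virus is not settled, its entry receptors were read. Cxadr, the coxsackie and adenovirus receptor, had 7.33 FPKM (6.78 to 7.91), and the entry integrin genes Itgb5 and Itgav had 129 and 6.25 FPKM.

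**Figure D4:**
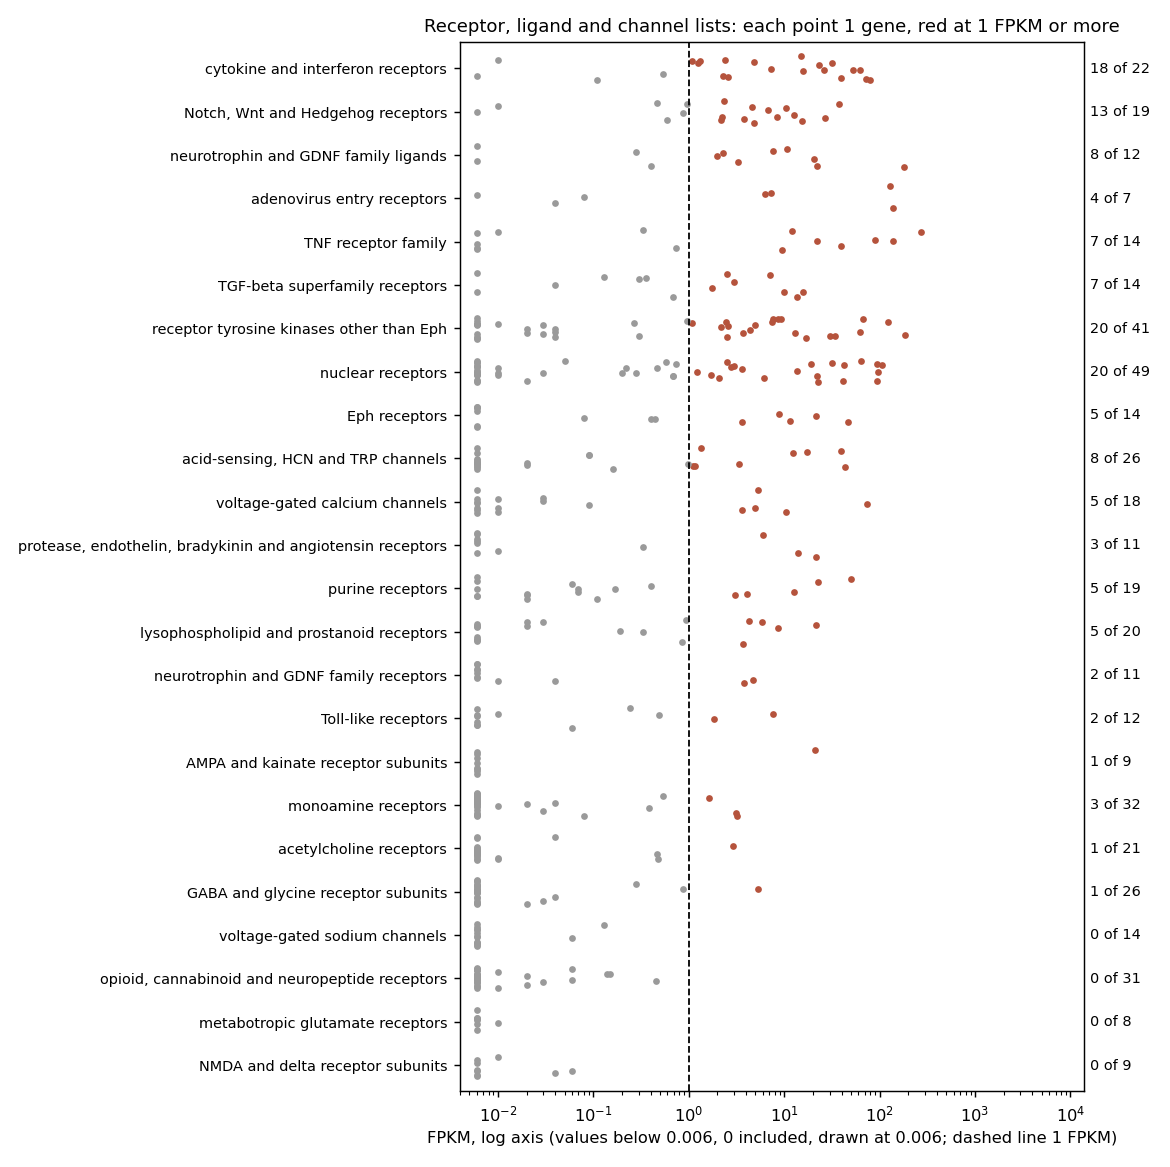
FPKM (log axis) of each gene in the receptor, ligand and channel lists, 1 point per gene, with genes at 1 FPKM or more in red and their number at the right. Cytokine and interferon receptors have 18 of 22 points right of the dashed line, and the NMDA, metabotropic glutamate, neuropeptide and sodium channel rows have none.

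Paralogue choice was read in 91 families as the share of the family's summed FPKM that its highest member held. A member reached 1 FPKM in 88 families. The leading member held 90% or more in 34 of these, and the median leading share was 80.5%. In 19 families a single member was at 1 FPKM or more, and in 25 every member was. The leader held under 50% in 12 families. In 3 families the interval of the ratio of leader to second included 1, so that no leader could be named at this depth, among them Slc16a1 and Slc16a3, and Ppp3cb and Ppp3ca. The leader had the higher GC content of the pair in 56 of 88 families and the shorter longest transcript in 51.

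In glycolysis several leading isoforms were those known from most tissues, while Pfkl, the liver form, led the phosphofructokinases at 250.4 FPKM. Aldoa stood at 3186 FPKM against 1.29 FPKM for Aldoc, the brain aldolase. Ldha stood at 4068 FPKM and Ldhb, the subunit favoured in heart and in neurons, at 2.62 FPKM from 53 counts, a ratio of 1555 (1188 to 2075). Pkm had 2485 FPKM and Pklr, of liver and red cells, had 1 count, a ratio of 167297 with an interval from 30026 to 6607920. Gapdh and Pgk1 were present and their sperm counterparts Gapdhs and Pgk2 had 0 counts. Eno1 had 3385 FPKM, beside 106 FPKM for the muscle enolase Eno3 and 47.5 FPKM for Eno2. Hk1 led the hexokinases at 65.9 FPKM and Slc2a1, the widespread glucose carrier GLUT1, led its family at 62.9 FPKM, while Slc2a3, the neuronal carrier GLUT3, stood at 0.36 FPKM.

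Of 4 subunit families of cytochrome oxidase, the last complex of the respiratory chain, 3 had a single form at 1 FPKM or more. Cox4i1 stood at 2056 FPKM and Cox4i2 had 0 counts, Cox6a1 stood at 1504 FPKM against 0.80 FPKM for the heart and muscle form Cox6a2, and Cox8a stood at 1558 FPKM with 0 counts for Cox8b. In the COX7A family all 3 members were present, and Cox7a2 at 453 FPKM exceeded Cox7a2l at 346 FPKM by a ratio of 1.31 (1.27 to 1.35) per length but had fewer counts, 6547 against 8144. The creatine kinase family had no member at 1 FPKM: Ckb, the brain form, had 3 counts and Ckm, Ckmt1 and Ckmt2 had 0. Ryanodine receptors and lipoxygenases were the other families with no member at 1 FPKM.

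Cytoskeletal families ranged from several members at high levels to a single one. All beta-tubulins but Tubb1 were present, with Tubb5 at 2719 FPKM and Tubb4b at 433 FPKM. The neuronal Tubb3 stood at 40.6 FPKM, below 5 other members. Tuba1b led the alpha-tubulins at 3282 FPKM over Tuba1a at 2257 FPKM. Actg1 exceeded Actb by a ratio of 1.46 (1.45 to 1.47) per length, both being cytoplasmic actins. Stmn1, the microtubule-destabilising stathmin, had 276 FPKM, and its neuronal relatives Stmn2, Stmn3 and Stmn4 had 1, 1 and 6 counts. Map4 led the microtubule-associated proteins at 93.4 FPKM, followed by Map6 at 40.03 FPKM from 2963 counts. In the dynamin family Dnm2 had 83.1 FPKM and Dnm1 had 43.97 FPKM from 2539 counts. A single member also led the intermediate filaments, where Vim held 97.6% of the family's FPKM, the profilins, where Pfn1 held 99.2%, the beta-spectrins, where Sptbn1 held 99.1%, and the cofilins, where Cfl1 held 90.9%.

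In most families of RNA processing and chromatin described here the leading form was one known outside neurons, and some neuronal forms were present beside it. Ptbp1, the splicing repressor that neurons replace with Ptbp2, stood at 296 FPKM (291 to 301) against 3.11 FPKM, a ratio of 95.3 (79.7 to 115). Elavl1, the ubiquitous HuR, had 11.04 FPKM, and its neuronal paralogues had none. Rbfox2 had 22.9 FPKM, and Rbfox1 and Rbfox3 had 0 counts. In the CELF family Celf1 led at 12.4 FPKM, and Celf4, a form of neurons, was second at 5.09 FPKM, a ratio of 2.43 (2.20 to 2.69). Actl6a, the BAF53a subunit of chromatin remodelling complexes in progenitors, had 58.1 FPKM, and Actl6b, its replacement in neurons, had 0 counts, which makes Actl6a at least 425-fold higher against the 3-count limit. In the BAF45 family of the same complexes Dpf2 and Phf10 had 61.6 and 57.0 FPKM, and of the neuronal forms Dpf1 had 5.67 FPKM from 185 counts (4.88 to 6.55) and Dpf3 had 1 count. Eef1a1 was at least 178070-fold above Eef1a2, the elongation factor of mature neurons and muscle, which had 0 counts. In the SNAP-25 family, Snap47, Snap23 and Snap29 had 169, 8.03 and 7.33 FPKM and Snap25 had none. Exons of Snap29 overlap those of Pi4ka, which had 974 counts against 616.

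Genes of glutamate and cystine transport and of glutathione use were read together. Of the glutamate transporters only Slc1a3, the glial GLAST, was present, at 2.59 FPKM, and Slc1a1, the neuronal EAAC1, had 0 counts. The xCT subunit gene Slc7a11, which exchanges cystine for glutamate, had 5.49 FPKM, and its heavy chain partner Slc3a2, which also serves other carriers, had 320 FPKM. Gpx4, the glutathione peroxidase that reduces lipid peroxides, stood at 1960.1 FPKM and Gpx1 at 907 FPKM. The lipoxygenase genes Alox5, Alox12 and Alox15 had 0 counts, and the highest of that family, Alox8 and Aloxe3, both stood at 0.17 FPKM.

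Among signalling families, Gnai2 had 744 FPKM against 12.8 FPKM for Gnai3 and 8.97 FPKM for Gnao1, the form abundant in brain. Hras had 80.3 FPKM and Nras 27.9 FPKM. Camk2g led the CaMKII genes at 32 FPKM, while Camk2a, the form of forebrain excitatory neurons, had 0.47 FPKM. Nos2, the inducible nitric oxide synthase, had 49.8 FPKM, and the neuronal Nos1 had 7 counts. The leader was more GC-rich than the second member for Gnai2 (56.7% against 41.7%) and Hras (55.2% against 42.6%). Camk2g had 51.8% against 43.9% for Camk2d, the second of its family. Nos2 and Nos1 were nearly alike, at 53.94% and 53.83%.

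Cell cycle families had an inhibitor locus and a kinase gene at high levels side by side. Cdkn2a, which encodes the inhibitor p16INK4a and ARF, had 870.4 FPKM (857 to 884). Cdk4, the kinase that p16INK4a binds, had 538 FPKM. The value of Cdkn2a is for the whole gene and does not separate p16INK4a from ARF. Cdk6 had 14.8 FPKM. Ccnd3 led the D cyclins at 156 FPKM over Ccnd1 at 41.6 FPKM, and Ccne1 led Ccne2 at 21.8 FPKM. Of the retinoblastoma family Rbl2 and Rbl1 had 8.06 and 5.63 FPKM, and Rb1 was below the threshold at 0.73 FPKM. Exons of Cdk4 overlap those of Tspan31 (4957 counts against 12636) and exons of Rbl2 those of Aktip (849 against 461).

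**Figure D5:**
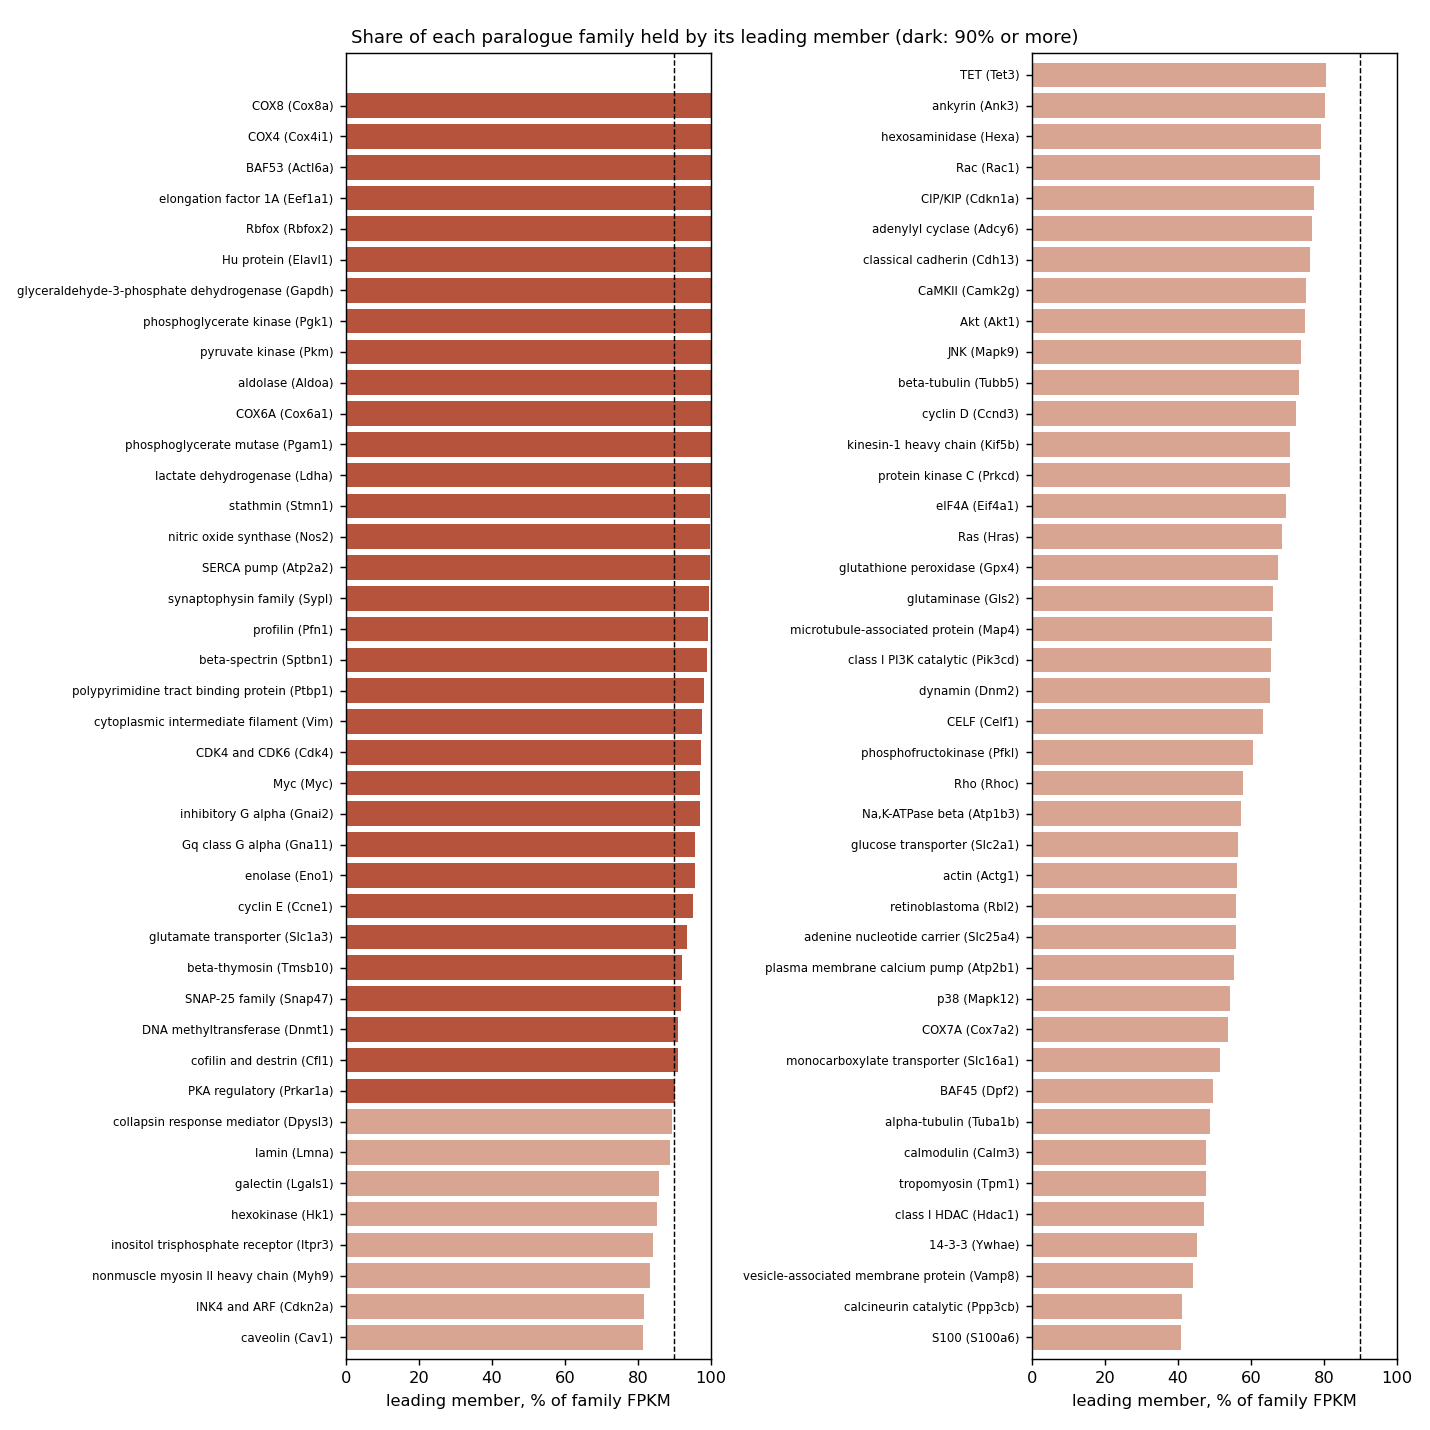
Share of the family's summed FPKM held by the leading member (horizontal axis, percent) in 83 of the 88 paralogue families with a member at 1 FPKM or more, the leader named in brackets. Dark bars mark the 33 drawn families with a leader at 90% or more, and the median share over the 88 is 80.5%.

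Promoter sequence was set beside these levels in windows of 250 bases before the RefSeq start of each gene (GRCm38.p6). A window was called CpG-rich where it had over 50% GC and an observed over expected CpG ratio above 0.6, the composition known for promoters of widely used genes. Of 27018 genes with a window, 31.2% were CpG-rich. Among protein-coding genes the share was 43.4% of 16348, with 67.3% of 8078 at 1 FPKM or more and 13.1% of 5429 at 0 counts. At 100 FPKM or more it was 68.2%, so it was much the same among members as a whole and among the most abundant.

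The GC box, GGGCGG or CCGCCC on the other strand, was in 33.0% of all windows, in 62.7% of coding windows at 1 FPKM or more and in 19.4% at 0 counts. The TATA motif, TATAAA or TTTATA on the other strand, went the other way, at 12.98%, 5.88% and 21.3%. The CCAAT motif, CCAAT or ATTGG, differed little, at 34.5%, 37.6% and 34.3%. Genes below 1 FPKM were not all of the CpG-poor kind. Of the transmitter and neuropeptide receptors below 1 FPKM, 38 of 97 with a window were CpG-rich, or 39.2%. Among pan-neuronal genes below 1 FPKM 5 of 11 were, or 45.5%. Both shares were near the 43.4% of all protein-coding genes. At 1 FPKM or more, 2 of 4 such receptors and 2 of 5 pan-neuronal genes were CpG-rich. By contrast, 0 of 12 hepatic, erythroid and lymphoid genes were.

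The windows of 3 pairs of paralogues are printed because each sets a widely used copy beside a low or undetected copy known from neurons. Each is in lower case, 5′ to 3′ on the gene's strand, with GC boxes in capitals. The Eef1a1 window (chr9:78481725-78481974, minus strand) held 18 CpG and 2 GC boxes, and that of the undetected Eef1a2 (chr2:181157016-181157265, minus strand) held 4 CpG and 1 GC box. The Ldha window (chr7:46845554-46845803, plus strand) held 25 CpG and 2 GC boxes, and that of Ldhb (chr6:142507958-142508207, minus strand) held 14 CpG and 0 GC boxes. The Elavl1 window (chr8:4325101-4325350, minus strand) held 31 CpG, and that of the undetected Elavl3 (chr9:22052024-22052273, minus strand) held 20 CpG, 1 GC box and a TATA motif. Of the undetected members, Eef1a2 was CpG-poor with a CpG ratio of 0.267 and Elavl3 was CpG-rich with a ratio of 0.845. These letters describe the windows and show no binding.
Eef1a1: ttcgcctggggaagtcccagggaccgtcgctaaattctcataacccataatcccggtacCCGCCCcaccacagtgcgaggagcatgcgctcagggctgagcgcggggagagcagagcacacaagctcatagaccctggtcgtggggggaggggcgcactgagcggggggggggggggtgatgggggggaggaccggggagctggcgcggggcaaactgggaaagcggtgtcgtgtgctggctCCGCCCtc
Eef1a2: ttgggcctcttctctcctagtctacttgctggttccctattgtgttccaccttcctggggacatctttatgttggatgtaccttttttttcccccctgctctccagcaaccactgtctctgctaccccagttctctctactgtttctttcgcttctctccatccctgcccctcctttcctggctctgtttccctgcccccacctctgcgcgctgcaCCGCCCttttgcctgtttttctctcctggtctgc
Ldha: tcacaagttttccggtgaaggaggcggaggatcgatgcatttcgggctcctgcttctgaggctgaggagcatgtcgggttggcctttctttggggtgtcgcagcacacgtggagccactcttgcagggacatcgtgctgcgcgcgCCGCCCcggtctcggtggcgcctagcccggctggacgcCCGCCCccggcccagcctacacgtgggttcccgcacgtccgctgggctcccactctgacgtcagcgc
Ldhb: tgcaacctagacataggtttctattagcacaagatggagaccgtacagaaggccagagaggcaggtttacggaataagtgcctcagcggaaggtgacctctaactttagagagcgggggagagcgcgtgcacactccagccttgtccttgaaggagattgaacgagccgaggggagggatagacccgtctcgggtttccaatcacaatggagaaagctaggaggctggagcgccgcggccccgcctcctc
Elavl1: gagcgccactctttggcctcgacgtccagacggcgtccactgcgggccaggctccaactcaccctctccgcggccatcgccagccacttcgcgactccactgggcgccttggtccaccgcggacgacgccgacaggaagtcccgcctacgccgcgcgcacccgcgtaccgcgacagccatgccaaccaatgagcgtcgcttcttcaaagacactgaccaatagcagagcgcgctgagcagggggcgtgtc
Elavl3: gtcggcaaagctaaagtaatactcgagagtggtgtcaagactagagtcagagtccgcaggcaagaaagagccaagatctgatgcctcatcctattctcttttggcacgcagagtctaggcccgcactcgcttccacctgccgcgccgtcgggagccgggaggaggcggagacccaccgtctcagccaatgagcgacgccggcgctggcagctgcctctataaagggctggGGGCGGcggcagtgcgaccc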

How the data were processed

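Total RNA of 1 library was sequenced after dUTP marking of a cDNA strand and 12 PCR cycles, per the labels' protocols. The submitters' processing notes name TopHat2 and mm10 without versions. The counter, its strand setting and the gene annotation release are not given in the sources used. For each gene the table gives lengths, expected counts, TPM and FPKM, per the file headers. The deposited expected counts are whole numbers, were used as counts and summed to 26002246. FPKM values deposited by the authors equalled the expected count per effective length and total within 2% for every member. TPM values deposited by the authors were scaled to a fixed library sum and served as an alternative. A gene's deposited length is weighted by isoform use: it equalled the plain mean of its isoforms (within 0.5%) in 91.1% of genes with several isoforms and 0 counts, but in 4.09% of those above 100 counts. FPKM between genes therefore depends on that isoform estimate.

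Symbols came from the gene name table, with 46488 of 47069 identifiers matched, and gene classes and exon overlaps from GENCODE M21 (GRCm38.p6). Of 434 list members at 1 FPKM or more, 140 share exon sequence with another annotated gene and in 20 the other gene has more counts. Python 3.11.15, pandas 2.3.3, numpy 2.4.6 and scipy 1.17.1 were used. Exact Poisson intervals of counts, and exact conditional binomial intervals of ratios that take lengths as known, were checked on simulated Poisson counts. That check covers the calculation only, and not PCR copies or the assignment of reads to genes. Named were the 20 genes highest in FPKM and the 10 highest in counts (small RNAs, placeholder names and -ps pseudogenes left out), up to 8 members per lineage or receptor list with defining members of few counts, and the leading, second and tissue-restricted members of each family. The members, the 23 lineage lists, 24 receptor lists and 91 families were chosen with earlier results of these data known. The xCT subunits, promoter windows, GC and length classes, chemokines, X-linked homologues, Trp53 and the repressor genes were chosen after values were seen. A further 4 columns of per-library values in the comparison tables were not used. Values of some genes and families are not reported here, although they enter every count and median.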

Additional observations from a re-analysis of the deposited data

How the results depend on the processing

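No replicate could be left out and no spread measured, since the group is 1 library. No paired analysis was possible because each group holds 1 library. The count of 11819 genes stayed within 1.5 times under every alternative run: 13096 at a minimum of 0.5 FPKM, 10457 at 2, 8364 at 5, 11753 by TPM, 11638 with at least 10 counts and 9990 without small RNAs, placeholder names and pseudogenes. Alternatives chosen after seeing the data gave 11706 without effective lengths under 50 and 10878 with counts per longest annotated isoform. Lineage and receptor genes present numbered 214 and fell to 129 at 5 FPKM. The share of the 20 most abundant genes was 12.3% of FPKM, 7.37% of counts, and 14.2% with the other classes left out. The leader was kept in 87 of 88 families per annotated length, 85 per longest isoform and 83 by counts. TPM is FPKM times a constant within 1 library, so it could not change a leader. On the log2 scale of leader over second, reversals by counts included Mapk12 over Mapk14 (-0.058), Hdac1 over Hdac3 (-0.16) and Cox7a2 over Cox7a2l (-0.31). Per longest isoform, reversals included Calm3 over Calm2 (-0.19). The size of the ratio held less often than the leader. By counts it moved for 57 pairs, reversed for 3 and stayed the same for 16. Per annotated length it moved for 24 and stayed the same for 52. Intervals of ratios take lengths as known, so they do not cover such changes. By construction, the settings by length and by counts differ from FPKM only in the length that divides the counts. Depth limits undetected lineage genes to a median of 0.0618 FPKM.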

Other observations

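Chemokines, which no list above holds, were picked after their values were seen. Of 37 chemokine genes, 14 were at 1 FPKM or more, beside 47.6% of protein-coding genes. The monocyte attractants Ccl2 and Ccl7 had 283 FPKM (275 to 291) and 197 FPKM, and the neutrophil attractant Cxcl1 had 239 FPKM. Cxcl12, the ligand of Cxcr4, had 187 FPKM and Cx3cl1, the chemokine fractalkine, known in brain as a neuronal signal to microglia, had 106 FPKM. Cxcl5 and the interferon-inducible Cxcl10 had 23.5 and 22.0 FPKM. Cxcl2 and Cxcl3 had 2 and 3 counts, and Ccl3 and Ccl4 had 0.

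Trp53 and the repressor genes were likewise picked after their values were seen. Trp53, the tumour suppressor p53 that large T antigen binds, had 162 FPKM. Rest, the repressor of neuronal genes outside neurons, stood at 1.42 FPKM from 250 counts, while its cofactor genes Rcor1 and Rcor2 had 5 and 49.4 FPKM. In the list of Y-linked genes and Xist only Eif2s3y passed 1 FPKM, at 2.11, with Ddx3y at 0.54 and Kdm5d at 0.40 FPKM. Their X-linked homologues, picked after values were seen, were higher, Eif2s3x at 17.8, Ddx3x at 10.97 and Kdm5c at 18.0 FPKM. Xist, the RNA of X inactivation in females, had 0 counts.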
